A study of Mus musculus with 18 samples.

Results

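Genes that carry thyroid hormone into the brain, activate or inactivate it, receive it and respond to it were examined as a set of 7: the transporter Slco1c1, the deiodinases Dio2 and Dio3, the receptors Thra and Thrb, and the responsive genes Klf9 and Hr. Members were matched by gene symbol in the array's annotation, which gave 17 single-gene probe sets for 6 of the 7 genes, out of 34945 single-gene probe sets in all. Dio3 was not analysed here. The probe set with the highest mean over all arrays stood for each gene. The set was chosen by the readings of Slco1c1, which were higher at later ages and in Htr3a-KO samples, so the values of Slco1c1 are given as a description without a test. The other members were listed for their roles, with earlier results of these data already known.

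The samples were interneurons of the cortex that arise in the caudal ganglionic eminence (CGE), sorted by fluorescence from mice carrying the GAD65-GFP transgene, which marks inhibitory neurons with green fluorescent protein. All 6 groups carried GAD65-GFP. Control groups had the transgene alone, and Htr3a-KO groups also lacked the serotonin receptor subunit gene Htr3a. The ages were embryonic E14.5 (tangential migration) and E18.5 (entry into the cortical plate), and postnatal P2 (settling). Each group comprised 3 arrays, from 3 litters, with no fewer than 4 brains pooled per array, so single animals cannot be seen and p-values measure the spread between pools.

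Thyroxine enters the brain through transporters such as the product of Slco1c1, which in rodents sits on brain endothelium, choroid plexus and some glia. The enzyme encoded by Dio2, found in brain mainly in glia, converts thyroxine to the active hormone triiodothyronine, and the enzyme encoded by Dio3 inactivates both. The nuclear receptors encoded by Thra and Thrb bind triiodothyronine and switch on genes such as Klf9, a zinc finger transcription factor, and Hr, a corepressor of nuclear receptors.

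The 250 bases before the annotated start are shown for Slco1c1, Dio2 and Klf9, the 3 genes whose readings climbed most with age, from RefSeq on build GRCm38.p6, in the 5′ to 3′ direction of each gene. Capitals mark matches to the motifs searched on both strands, which were the thyroid hormone receptor half-site AGGTCA, a direct repeat of that half-site with a spacer of 4 bases of any kind (which holds the half-site motif), the cAMP response element TGACGTCA and the TATA element TATAAA.
Slco1c1, chr6:141524104-141524353, plus strand: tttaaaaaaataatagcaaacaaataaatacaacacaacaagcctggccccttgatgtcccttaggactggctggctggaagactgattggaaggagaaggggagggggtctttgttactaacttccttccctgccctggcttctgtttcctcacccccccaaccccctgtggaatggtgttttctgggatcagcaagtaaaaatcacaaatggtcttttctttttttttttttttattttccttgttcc
Dio2, chr12:90739039-90739288, minus strand: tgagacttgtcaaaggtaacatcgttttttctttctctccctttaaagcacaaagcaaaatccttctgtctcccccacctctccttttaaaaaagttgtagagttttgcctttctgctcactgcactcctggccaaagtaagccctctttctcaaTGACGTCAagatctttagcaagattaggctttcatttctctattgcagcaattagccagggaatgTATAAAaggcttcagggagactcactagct
Klf9, chr19:23140976-23141225, plus strand: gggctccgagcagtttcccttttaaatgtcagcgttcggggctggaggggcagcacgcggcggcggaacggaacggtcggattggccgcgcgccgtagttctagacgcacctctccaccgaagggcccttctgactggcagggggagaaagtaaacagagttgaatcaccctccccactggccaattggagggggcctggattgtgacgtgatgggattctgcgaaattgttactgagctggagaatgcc

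The Dio2 window held 1 cAMP response element, 95 to 88 bases before the start, and 1 TATA element, 30 to 25 bases before it. The Slco1c1 and Klf9 windows held none of the 4 motifs. Of 32851 such windows in the table, 1.55% held the cAMP response element, 12.4% the TATA element, 14% the half-site and 0.0152% the direct repeat. Windows were given for 5 of the 7 genes. Of the other windows, that of Dio3 held a TATA element, 1 of the 2 Thrb windows held a half-site, and the other Thrb window held a TATA element. A match or its absence in these letters is a description of the window and says nothing about binding.

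All values below are log2 intensities after robust multi-array averaging, the authors' normalization of the arrays, and differences are in log2 units. Array medians lay between 6.35 and 6.46, and correlations between arrays of a group were 0.984 to 0.996. Probe sets with a mean under 5.255, the lowest 30%, were set aside as dim before testing, which left 14292 genes. Htr3a read 6.61 to 7.41 in Htr3a-KO arrays and 7.65 to 10.79 in control arrays. The interneuron genes Gad1 (10.88 to 12.34) and Gad2 (8.44 to 11.57) were high on every array, while Prox1, a transcription factor of CGE interneurons, lay between 4.74 and 7.42. Inhibitory neuron genes were not level with age. Of 7 listed, 4 fell from E14.5 to E18.5 (median difference −0.945), where 27.7% of all genes were called in either direction. From E18.5 to P2, 0 of the 7 fell (median difference −0.343). The part of inhibitory neuron RNA in the age steps was not tested. RNA of other cells was present, since Neurod6 of excitatory neurons read 8.91 to 12.38. Of the sex-linked genes, array 2 of E14.5 Htr3a-KO stood apart in Xist (7.87 against 10.86 to 12.67 elsewhere). Array 2 of E18.5 control stood apart in Eif2s3y (4.07 against 8.25 to 9.78). The sex makeup of the pools was not tested. Results that turn on 1 array are given without it.

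Slco1c1, the thyroxine transporter, was measured by 1 probe set. In controls, the E14.5 arrays stood at 5.71, 5.21 and 5.83, the E18.5 arrays at 8.09, 8.76 and 8.60, and the P2 arrays at 10.70, 11 and 11.38. Those of Htr3a-KO stood at 7.23, 7.96 and 6.36 (E14.5), 9.64, 9.43 and 9.56 (E18.5) and 11.55, 11.73 and 11.76 (P2). The 6 groups formed a ladder in which each group lay wholly above the one before, in the order E14.5 control, E14.5 Htr3a-KO, E18.5 control, E18.5 Htr3a-KO, P2 control and P2 Htr3a-KO. The steps between neighbouring means were 1.60, 1.30, 1.06, 1.48 and 0.65. The genotype difference was thus 1.60 at E14.5, 1.06 at E18.5 and 0.65 at P2. These values were the reason for choosing the gene. Complete separation upwards at all 3 ages occurred in 12 of 14292 genes (0.084%), a background from which nothing is read for Slco1c1. The E14.5 control mean of 5.58 ± 0.33 (SD, n = 3) lay near the dim level, so differences from it do not set the size of an RNA change. In these pooled sorted samples, fewer cells of a type and less RNA per cell cannot be told apart.

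**Figure D1:**
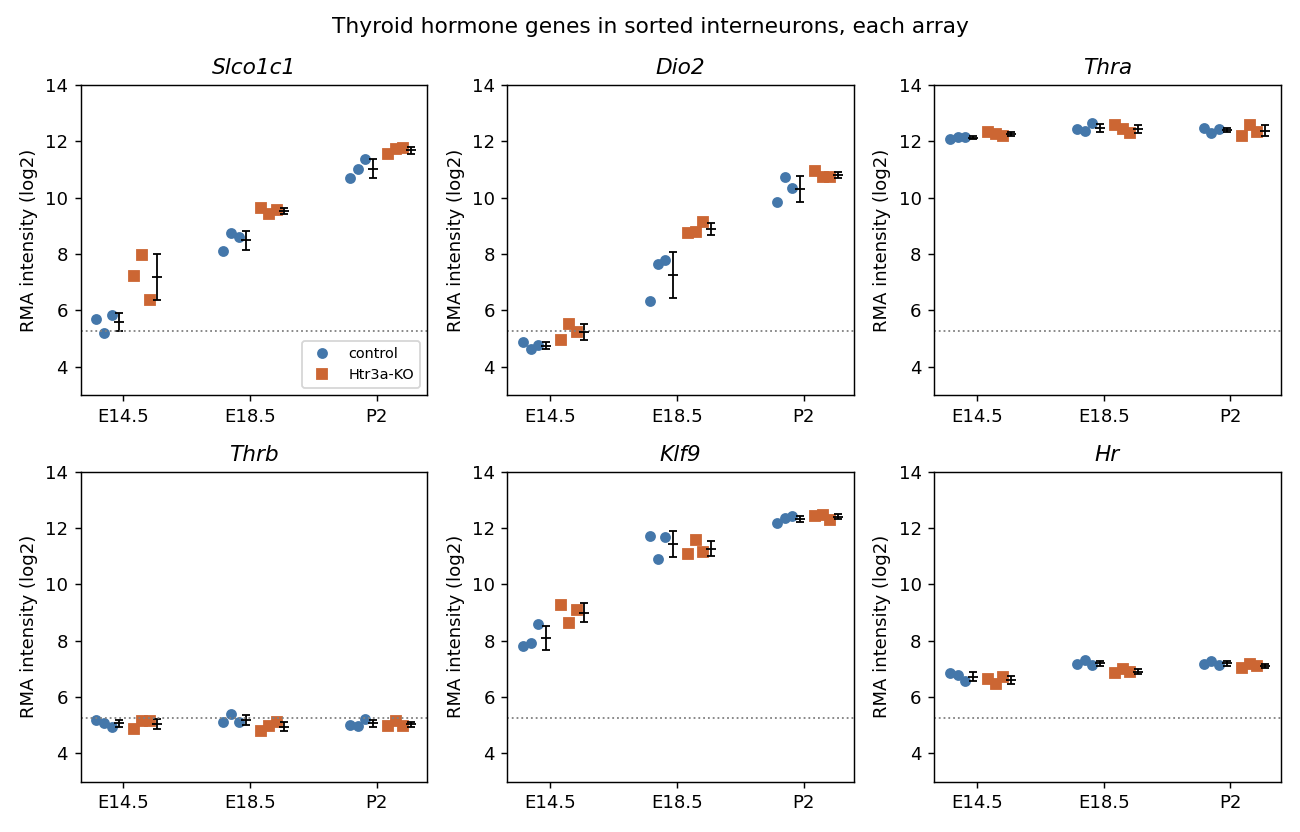
Log2 intensity of the main probe set of each measured gene (vertical axes) at the 3 ages (horizontal axes), with 1 point per array, blue circles for control and orange squares for Htr3a-KO; black bars give the mean ± SD over 3 arrays and the dotted line the dim level of 5.255. Slco1c1, Dio2 and Klf9 climb with age, Thra stays near 12, Hr near 7, and Thrb lies about the dim level.

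Dio2, the activating deiodinase, rose at both age steps. In controls, the E14.5 arrays stood at 4.87, 4.62 and 4.76, the E18.5 arrays at 6.33, 7.66 and 7.78, and the P2 arrays at 9.83, 10.74 and 10.33. Those of Htr3a-KO stood at 4.94, 5.52 and 5.24 (E14.5), 8.73, 8.77 and 9.12 (E18.5) and 10.94, 10.74 and 10.73 (P2). No array of one age overlapped an array of the next within either genotype, which held upwards for 6.98% of all genes at the first step and 11.1% at the second. Averaged over genotypes Dio2 rose by 3.07 (SE 0.21) from E14.5 to E18.5 (limma, adjusted p = 2.43e-07) and by 2.49 (SE 0.21) from E18.5 to P2 (adjusted p = 6.40e-07). In controls the steps were 2.51 (adjusted p = 1.27e-04) and 3.04 (adjusted p = 1.56e-05), and in Htr3a-KO samples 3.64 (adjusted p = 4.74e-06) and 1.93 (adjusted p = 4.12e-04). The E14.5 means, 4.75 ± 0.13 and 5.23 ± 0.29 in control and Htr3a-KO (SD, n = 3), were below the dim level, so the first step is a difference from a dim reading. The gene passed the filter through its later ages.

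A second Dio2 probe set rose by 1.17 from E14.5 to E18.5 (adjusted p = 7.03e-04) and by 1.99 from E18.5 to P2 (adjusted p = 3.31e-06, limma over all probe sets). The third, with a mean of 5.91, changed by 0.11 at the first step (adjusted p = 0.650) and rose by 0.80 at the second (adjusted p = 9.68e-04). The 3 probe sets thus all passed at the later step, and 2 of them at the earlier one.

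Thra, which encodes the receptor form that predominates in developing brain, was high and nearly level. In controls, the E14.5 arrays stood at 12.08, 12.15 and 12.17, the E18.5 arrays at 12.43, 12.38 and 12.65, and the P2 arrays at 12.47, 12.31 and 12.43. Those of Htr3a-KO stood at 12.32, 12.27 and 12.18 (E14.5), 12.59, 12.45 and 12.31 (E18.5) and 12.20, 12.58 and 12.33 (P2). Controls at E14.5 lay below all other groups, and the other 5 groups overlapped their neighbours in the order of means. Over both genotypes Thra rose by 0.27 (SE 0.08, 1.21-fold) from E14.5 to E18.5 (adjusted p = 0.0169) and then differed by −0.08 at P2 (adjusted p = 0.430). In controls alone the first step was 0.35 (adjusted p = 0.0512). The 2 further Thra probe sets rose by 0.32 (adjusted p = 0.0380) and 0.34 (adjusted p = 0.0353) at the first step.

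Thrb, the other receptor gene, had 1 probe set with a mean under the dim level. Its arrays read 4.79 to 5.41, and every group overlapped its neighbours. In the fit of every probe set without a filter its age steps over both genotypes were 0.02 (adjusted p = 0.929) and −0.03 (adjusted p = 0.841). A reading this dim leaves the level of Thrb RNA unmeasured.

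Klf9, a direct target of the hormone receptors in rodent brain, rose steeply at the first step and less at the second. In controls, the E14.5 arrays stood at 7.80, 7.92 and 8.58, the E18.5 arrays at 11.71, 10.89 and 11.69, and the P2 arrays at 12.19, 12.35 and 12.41. Those of Htr3a-KO stood at 9.27, 8.62 and 9.09 (E14.5), 11.08, 11.59 and 11.14 (E18.5) and 12.44, 12.48 and 12.30 (P2). The ages did not overlap within either genotype, whereas on this main probe set the genotypes overlapped at E18.5 and P2. Over both genotypes Klf9 rose by 2.80 (SE 0.17, 6.98-fold) from E14.5 to E18.5 (adjusted p = 4.26e-08) and by 1.01 (SE 0.17, 2.02-fold) from E18.5 to P2 (adjusted p = 2.62e-04). In controls the second step was 0.89 (adjusted p = 0.0162), a call lost without E18.5 control array 2 (0.62, adjusted p = 0.0835), P2 control array 2 (0.87, adjusted p = 0.0504) or P2 control array 3 (0.84, adjusted p = 0.0530).

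Klf9 had 7 probe sets. The next brightest rose by 2.53 (adjusted p = 1.09e-08) at the first step and by 0.98 (adjusted p = 5.17e-05) at the second, and the third by 2.49 (adjusted p = 1.87e-07) and 1.15 (adjusted p = 1.07e-04). Of the 4 dimmer ones, 2 also rose at both steps over both genotypes. The dimmer of these 2, with a mean of 4.15, lay under the dim level and was tested only in the fit without a filter. In controls alone neither of the 2 passed at the second step, with 0.55 (limma, adjusted p = 0.183) and 0.26 (adjusted p = 0.561). The remaining 2, with means of 5.40 and 5.05, gave 0.10 (adjusted p = 0.454) and 0.11 (adjusted p = 0.322) at the first step.

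Hr, the corepressor gene, rose modestly at the first step. In controls, the E14.5 arrays stood at 6.86, 6.77 and 6.56, the E18.5 arrays at 7.17, 7.30 and 7.13, and the P2 arrays at 7.16, 7.29 and 7.14. Those of Htr3a-KO stood at 6.64, 6.47 and 6.73 (E14.5), 6.84, 6.99 and 6.88 (E18.5) and 7.03, 7.16 and 7.10 (P2). E14.5 arrays lay below E18.5 arrays of the same genotype, and E18.5 and P2 overlapped in controls. Over both genotypes Hr rose by 0.38 (SE 0.07, 1.30-fold) from E14.5 to E18.5 (adjusted p = 0.00112) and differed by 0.10 at P2 (adjusted p = 0.305). The second Hr probe set, with a mean of 6.0, gave −0.09 (adjusted p = 0.423), and with the mean of both probe sets the first step was 0.14 (adjusted p = 0.117).

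**Figure D2:**
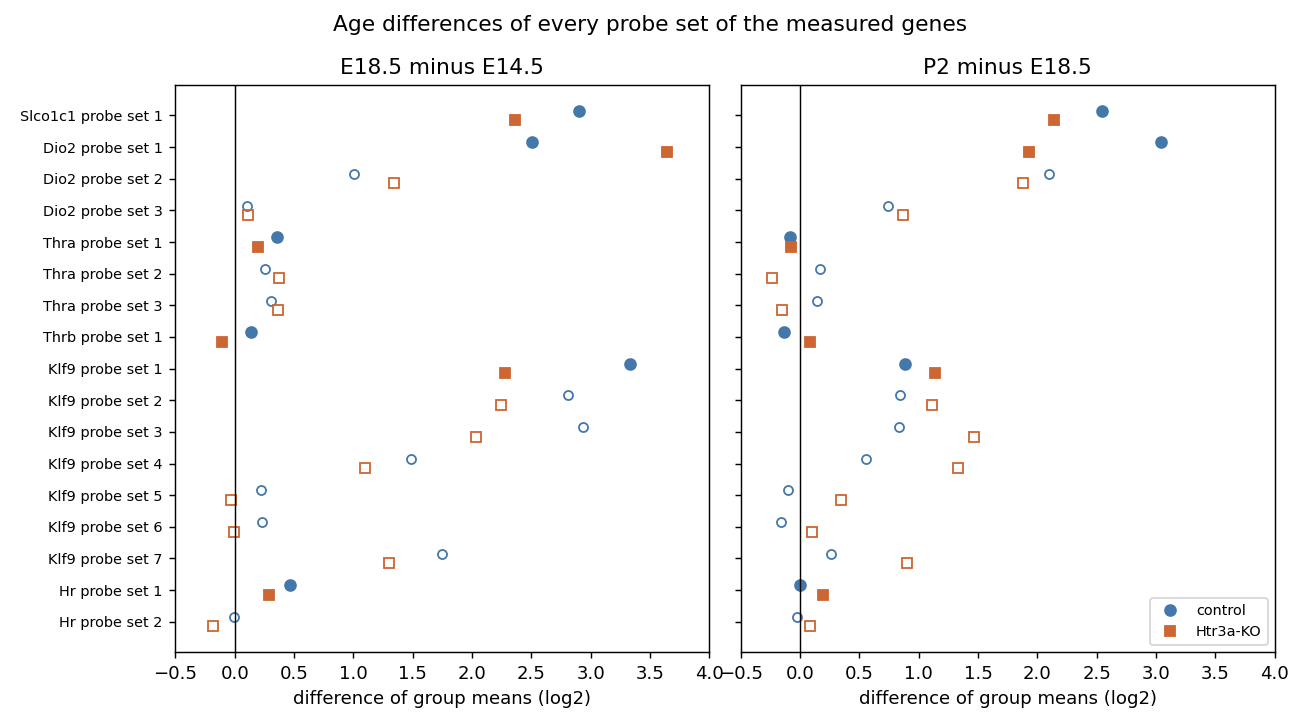
Difference of group means in log2 units (horizontal axes) from E14.5 to E18.5 and from E18.5 to P2 for each of the 17 probe sets, numbered within a gene by falling mean, with blue circles for control and orange squares for Htr3a-KO; filled symbols are main probe sets. The 3 brightest probe sets of Klf9 lie between 2.03 and 3.33 at the first step, while its probe sets 5 and 6 and the third of Dio2 lie near 0.

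In counts over both genotypes, 4 of the 4 members tested rose from E14.5 to E18.5, where 12.2% of all genes tested rose, and 2 of 4 rose from E18.5 to P2, where 17.6% did. In controls 3 of 4 rose at the first step, where 6.06% of genes did, and 2 of 4 at the second (9.96%). In Htr3a-KO samples 2 of 4 rose at the first step (6.26%) and 2 of 4 at the second (13.5%). None fell. The median difference of the 4 was 1.59 and 0.55 at the steps averaged over genotypes, beside −0.06 and −0.01 for all genes tested. These counts leave out Dio3, Thrb and Slco1c1, and a gene such as Dio2 entered them only because it was bright at later ages.

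Between genotypes, none of the 4 members tested passed at any age. At an unadjusted p under 0.05 Klf9 stood alone at E14.5, Dio2 and Hr at E18.5, none at P2, and Dio2 and Hr again for the mean of the 3 ages. That level was reached by 5.86% (E14.5), 12.9% (E18.5), 7.58% (P2) and 11.2% (mean) of all genes. After adjustment few of all genes passed, with 0.014% in the E14.5 comparison, 0.021% in that of E18.5, 0.035% in that of P2 and 0.294% in the mean.

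Dio2 had the largest genotype difference among the members tested. At E18.5 every Htr3a-KO array, at 8.73 to 9.12, lay above every control array, at 6.33 to 7.78, a difference of 1.62 (SE 0.30, limma, adjusted p = 0.0823). Of all genes, 5.56% were separated upwards at E18.5. The value depended on the control arrays and on the probe sets. Without E18.5 control array 1, the lowest, the difference was 1.15 (adjusted p = 0.230), and with the mean of the probe sets it was 0.66 (adjusted p = 0.236). Without E18.5 control array 3 it was 1.88 (adjusted p = 0.0361), and with array weights it was 1.91 (adjusted p = 0.00278). Over all alternatives that adjusted p ranged from 0.00278 to 0.308. At E14.5 and P2 the differences were 0.48 (adjusted p = 0.934) and 0.50 (adjusted p = 0.705). Averaged over ages Dio2 differed by 0.87 (SE 0.17, adjusted p = 0.0506), just outside the threshold, with a range of 0.0162 to 0.331 over alternatives. With the replicate number as a block it was 0.87 (adjusted p = 0.0448). The other Dio2 probe sets gave 0.46 (adjusted p = 0.453) and −0.10 (adjusted p = 0.853) at E18.5, so the 3 disagreed in size and in sign.

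Klf9 differed between genotypes by 0.89 (SE 0.24) at E14.5, where Htr3a-KO arrays (8.62 to 9.27) lay above control arrays (7.80 to 8.58), but did not pass (limma, adjusted p = 0.659). Separation upwards at E14.5 occurred in 4.98% of genes. Without E14.5 control array 3, the highest control, the difference was 1.13 (adjusted p = 0.0356), and with array weights 1.05 (adjusted p = 0.0439). The 2 next Klf9 probe sets gave 0.50 (adjusted p = 0.819) and 0.53 (adjusted p = 0.901), the latter with overlapping arrays. At E18.5 and P2 the Klf9 differences were −0.16 (adjusted p = 0.807) and 0.09 (adjusted p = 0.953). The 2 next probe sets gave 0.20 (adjusted p = 0.869) and 0.26 (adjusted p = 0.870) at P2, where their arrays did not overlap. The share of all genes separated at P2 is not given here, so nothing is read from that separation.

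Hr lay lower in every Htr3a-KO array than in every control array at E18.5, by 0.30 (SE 0.10), which did not pass (adjusted p = 0.269), and arrays were separated in one direction or the other for 20.7% of genes. Its differences at E14.5 and P2 were −0.12 (adjusted p = 0.977) and −0.10 (adjusted p = 0.840). Thra differed by 0.12, −0.04 and −0.03 at the 3 ages (adjusted p = 0.986, 0.908 and 0.963, limma), each near its SE of 0.11 or below. Thrb gave −0.25 at E18.5 (adjusted p = 0.334) in the fit without a filter.

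**Figure D3:**
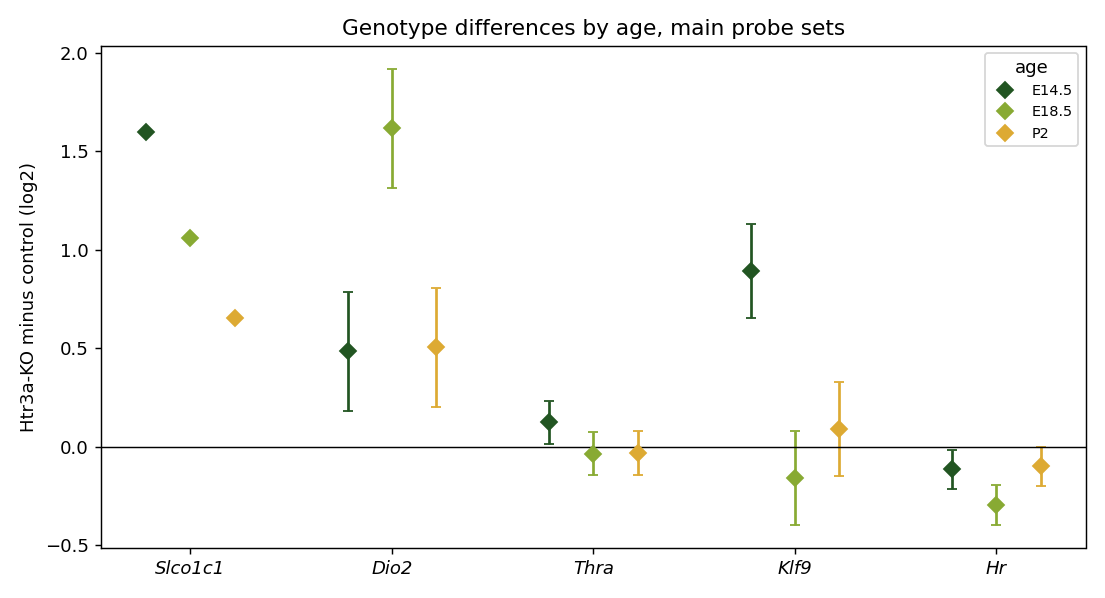
Htr3a-KO minus control in log2 units (vertical axis) for the main probe set of each gene (horizontal axis) at E14.5, E18.5 and P2; bars are limma standard errors, and Slco1c1 has none because it was not tested. Slco1c1 lies at 1.60, 1.06 and 0.65, Dio2 is highest at E18.5 with 1.62, and Klf9 is highest at E14.5 with 0.89.

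Whether the genotype difference changed with age was tested for each member except Slco1c1. The adjusted p was 0.691 for Dio2, 0.691 for Klf9, 0.856 for Thra and 0.796 for Hr. Without adjustment limma's F test over all genes gave 0.0273 for Dio2 and 0.0171 for Klf9. Of all 14292 genes, 0 (0%) passed limma's F test, and 1033 had an unadjusted p under 0.05.

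Markers of other cell types moved with the same arrays. Brain endothelium was read from a list of 12 genes that leaves out Slco1c1, of which 11 were on the array and 10 above the dim level, with Pecam1 below it (3.82 to 4.58). The mean of the list lay between 6.31 and 6.69 in E14.5 control arrays and between 6.63 and 7.41 in E14.5 Htr3a-KO arrays. At E18.5 it lay between 6.44 and 7.0 in control and 6.82 and 7.27 in Htr3a-KO, and at P2 between 6.97 and 7.91 and between 7.0 and 8.25. The ranges of the genotypes overlapped at each age, and the P2 ranges lay mostly above the earlier ones. The median genotype difference of the 10 genes tested was nonetheless above 0 at each age, with 0.595 (E14.5), 0.495 (E18.5) and 0.397 (P2). None of the 10 passed at a single age, and 1 rose for the mean of ages, where the median was 0.517. Markers of mural cells, which wrap brain vessels, were separated by genotype at E14.5, with a mean of 6 genes of 5.34 to 6.27 in control and 6.36 to 7.49 in Htr3a-KO arrays. Meningeal markers were separated there as well, with a mean of 8 genes of 5.66 to 5.83 in control and 6.07 to 6.31 in Htr3a-KO arrays. So were 5 markers of interneurons from the medial ganglionic eminence, with a mean of 9.35 to 9.49 in control and 9.64 to 9.80 in Htr3a-KO arrays. The median genotype difference of 10 microglial genes at E14.5 was 1.37, with list means that overlapped. Of all single genes, 4.98% were separated upwards at E14.5. Cldn5, the tight junction gene of endothelium, read 6.80 to 10.70 over the arrays. Over the 18 arrays Slco1c1 had a Pearson r of 0.733 with the endothelial, 0.797 with the mural and 0.769 with the meningeal mean. For deviations from group means these were 0.401, 0.400 and 0.286. Thra had 0.788, 0.761 and 0.798 for such deviations. The part of endothelial, mural and meningeal RNA in the Slco1c1 and Thra values was not tested.

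Choroid plexus, which also carries Slco1c1, was read from 6 listed genes, of which only 2 were above the dim level. The mean of all 6 was 5.57, 7.08 and 4.97 in the E14.5 Htr3a-KO arrays, and 4.69 to 5.20 in all arrays of the other groups. Slco1c1 followed the same order in those 3 arrays, with 7.23, 7.96 and 6.36. Ttr, named after its values were seen, encodes the thyroid hormone carrier protein made by choroid plexus and read 13.39, 14.03 and 7.06 in them, against 5.26, 7.41 and 5.68 in E14.5 controls. That Ttr difference of 5.38 did not pass (adjusted p = 0.685), with 1 of the 3 Htr3a-KO arrays inside the control range. Without E14.5 Htr3a-KO array 2, which also stood apart in Xist, the Slco1c1 difference at E14.5 was 1.21. Over the 18 arrays Slco1c1 and the mean of the 6 genes had a Pearson r of −0.288, and their deviations from group means an r of 0.706. That mean had an SD of 1.09 in E14.5 Htr3a-KO arrays and 0.21 in E14.5 control arrays. The part of choroid plexus RNA was not tested. At E18.5 and P2 the list mean, which rests mostly on dim genes, lay between 4.69 and 4.86. Ttr, however, read 4.49, 6.0 and 5.92 in E18.5 controls and 9.67, 7.02 and 5.05 in E18.5 Htr3a-KO arrays. At P2 Ttr read 11.04, 8.04 and 5.80 in controls and 9.02, 7.03 and 4.97 in Htr3a-KO arrays, so it varied widely within groups at the later ages too.

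Glial markers moved with Dio2. The mean of 7 oligodendrocyte lineage genes was 6.38 to 6.82 at E14.5, 8.52 to 9.86 at E18.5 and 10.65 to 11.34 at P2. At E18.5 it was 8.52, 9.37 and 9.44 in control arrays and 9.56, 9.55 and 9.86 in Htr3a-KO arrays, the same order of genotypes as Dio2, and control array 1 was lowest in both. Over the 18 arrays Dio2 and this mean had a Pearson r of 0.984, and their deviations from group means an r of 0.851. For Slco1c1 the same correlations were 0.950 and 0.166, and for Klf9 0.949 and −0.431. Points of one age share their stage and points of one array their RNA, so the correlations describe these arrays. From E18.5 to P2, 11 of 11 astrocyte genes tested rose, where 17.6% of all genes did, and Gjb6 of the list was below the dim level. The mean of 12 astrocyte genes was 6.77 to 7.54 at E14.5 and 9.69 to 10.73 at P2. At E18.5 it was 6.87, 7.31 and 7.78 in control arrays and 7.85, 7.94 and 8.08 in Htr3a-KO arrays, without overlap, as for Dio2. Its r with Dio2 was 0.896, and 0.654 for deviations from group means. Aqp4, the astrocyte water channel, read 3.29 to 4.22 at E14.5 and 9.78 to 11.62 at P2, and passed the filter through its P2 readings. At E18.5 Aqp4 read 3.60, 4.17 and 5.91 in control arrays and 6.28, 6.38 and 6.07 in Htr3a-KO arrays, again without overlap. Of all genes, 5.56% were separated upwards there. The mean of 7 radial glia genes was separated at E18.5 as well, with 9.17 to 9.98 in control and 10.12 to 10.55 in Htr3a-KO arrays. Its r with Dio2 was 0.589, and 0.559 for deviations from group means. The part of glial RNA in the Dio2, Slco1c1 and Klf9 values was not tested.

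**Figure D4:**
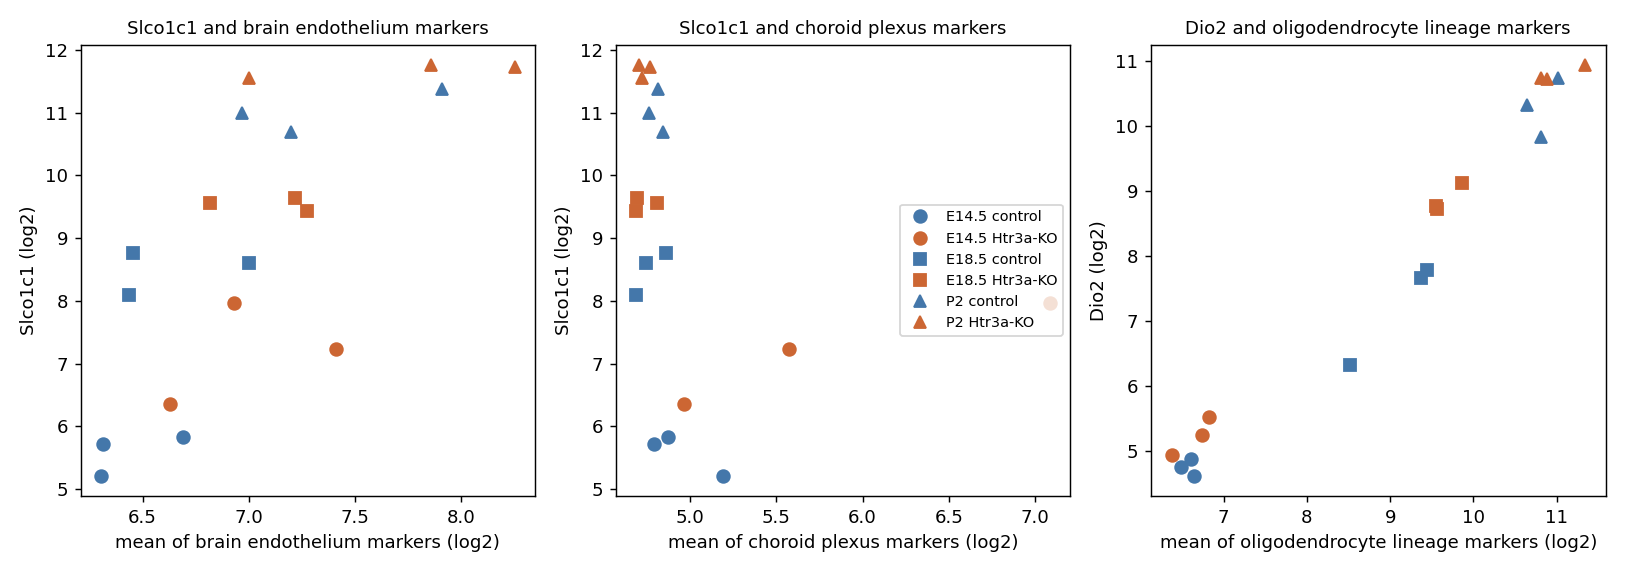
Log2 intensity of Slco1c1 or Dio2 (vertical axes) against the mean log2 intensity of a marker list (horizontal axes) on each of the 18 arrays, with colour for genotype and symbol for age. E14.5 Htr3a-KO array 2 stands at 7.08 for choroid plexus markers with Slco1c1 at 7.96, and Dio2 follows the oligodendrocyte lineage mean from 6.38 to 11.34.

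By Pearson r over the 18 arrays, the genes most like Slco1c1 were Gatm (0.974), Dio2 (0.973), Ampd3 (0.972), Galnt13 (0.972) and Cntn1 (0.970). The arrays share age and genotype, so these are descriptions. Those most like Dio2 were Cbr3 (0.985), Sox10 (0.984), a transcription factor of the oligodendrocyte lineage, and Lnx1 (0.984). Klf9 was most like Ncald (0.985), the immediate early gene Fos (0.972) and Larp1b (0.972). Thra was most like Adam22 (0.924), Epb41l1 (0.907) and Trim67 (0.903), and Hr most like C2cd4c (0.884), Ccdc184 (0.866) and Pkia (0.865). Slco1c1 and Klf9 had an r of 0.925 over the arrays and of −0.275 for deviations from group means. Slco1c1 and Dio2 had 0.461 for such deviations.

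Other genes of the pathway were read from 39 listed genes, of which 33 were measured above the dim level. Over both genotypes, 8 rose and 2 fell from E14.5 to E18.5, or 30.3% called against 27.7% of all genes tested. From E18.5 to P2, 9 rose and 5 fell, or 42.4% against 39.7%. Counted in either direction, both shares were close to the background. Upwards alone, 8 of 33 stood beside 12.2% of all genes at the first step, and 9 of 33 beside 17.6% at the second.

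Among 5 further transporters, 1 fell at the first step and 3 rose at the second. Slc3a2, the heavy chain shared by the large neutral amino acid transporters, fell by 0.38 (adjusted p = 0.0261) and then rose by 0.55 (adjusted p = 0.00165). Its partner Slc7a5, which also carries thyroid hormones, rose by 0.60 at the second step (adjusted p = 0.0119). Slco1a4, another organic anion transporter of brain vessels, rose by 0.48 at the second step (adjusted p = 0.0123), from 5.62 to 6.01 on E18.5 arrays to 5.95 to 6.59 on P2 arrays. That range was near the dim level, and Slco1a4 gave −0.25 at the first step (adjusted p = 0.197). The aromatic amino acid and thyroid hormone transporter Slc16a10 gave −0.15 (adjusted p = 0.210) and 0.12 (adjusted p = 0.289).

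Of the 2 carriers measured, Crym, a cytosolic binding protein of triiodothyronine, rose by 1.22 from E14.5 to E18.5 (adjusted p = 0.0159). Its E14.5 controls spread from 4.62 to 6.86, and E14.5 Htr3a-KO arrays read 6.30 to 7.30, and the rise was 1.89 in controls (adjusted p = 0.0207), beside a difference of 0.55 in Htr3a-KO samples (adjusted p = 0.455).

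Receptor partners and coregulators had 2 of 14 up at the first step and 1 up with 5 down at the second. Itgav, an integrin subunit that takes part in a cell surface hormone receptor, rose by 0.68 (adjusted p = 0.0157) and then by 2.05 (adjusted p = 1.43e-06), from 8.56 to 9.80 at E18.5 to 10.96 to 11.85 at P2. Tbl1xr1, a corepressor subunit, rose by 0.38 (adjusted p = 0.00534) and then fell by 0.32 (adjusted p = 0.00953). The coactivator gene Ep300 fell by 0.51 at the second step (adjusted p = 0.00103), and Med1, Rxrb and Crebbp, named after their values were seen, also fell. By genotype, 0 of the 14 fell at that step in controls and 5 in Htr3a-KO samples. Of all genes, 33% had an unadjusted p under 0.05 in limma at that step in controls and 40.9% in Htr3a-KO samples, in either direction. Those shares use a looser threshold than the counts of 0 and 5. The share of all genes that fell at the adjusted threshold is not given here. The counts are therefore not read as a difference between genotypes. Of the 14, 0 passed limma's test of whether the genotype difference changed with age, and the list as a whole was not tested. Med1 gave −0.05 in controls (adjusted p = 0.841) and fell by 0.63 in Htr3a-KO samples (adjusted p = 0.00496).

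Hormone-responsive brain genes had 5 of 12 up and 1 down at the first step, with a median of 0.31, and 5 up at the second, with a median of 0.21. Rasd2, a small GTPase of striatum, rose by 0.95 at the first step (adjusted p = 3.56e-04). Sema7a, a membrane semaphorin, rose by 0.64 (adjusted p = 0.00402), and Reln, the secreted guide of cortical layering, by 0.68 (adjusted p = 0.0184). At the second step Dbp, a clock output transcription factor, rose by 1.0 (adjusted p = 3.85e-05), Nrgn, a calmodulin-binding postsynaptic protein, by 1.85 (adjusted p = 2.85e-04) and Camk4, a calcium-dependent kinase, by 1.22 (adjusted p = 9.04e-04). The myelin gene Mbp, named after its value was seen, fell by 0.28 at the first step (adjusted p = 0.0359). Between genotypes 0 of the 33 pathway genes passed in limma at any age or for the mean of ages. An unadjusted p under 0.05 was seen for 8 of 33 at E14.5, beside 5.86% of all genes, and 5 of 33 at E18.5, beside 12.9%. It was seen for 1 of 33 at P2, beside 7.58%, and 5 of 33 for the mean, beside 11.2%.

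**Figure D5:**
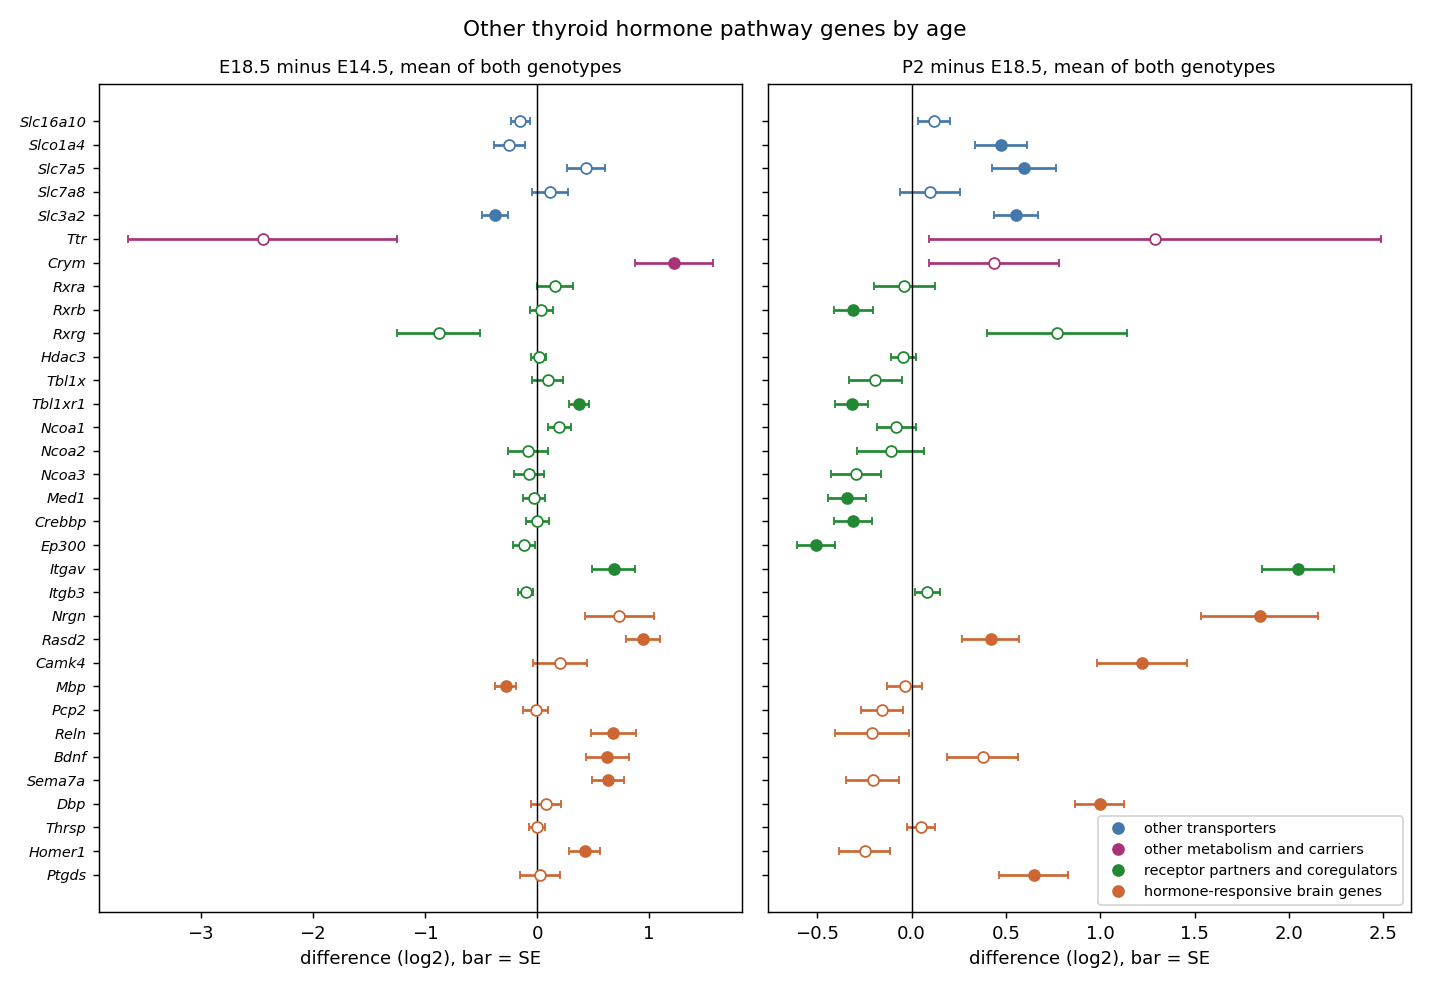
Difference between ages averaged over genotypes, in log2 units with limma standard errors (horizontal axes), for the 33 other pathway genes measured (rows), coloured by list; filled points passed at an adjusted p under 0.05. Itgav at 2.05 and Nrgn at 1.85 lie farthest right at the second step, and Ttr has the widest bars.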

How the data were processed

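RNA from the sorted cells was amplified and hybridised to Affymetrix mouse genome arrays. The values are log2 intensities that the authors deposited after robust multi-array averaging (Partek Genomic Suite 6.6), per the series' design text, and were used unchanged. None of the columns was left unused (0). Of 45101 probe sets, 64 were controls, and in the array annotation 34945 named a single gene, 932 several and 9160 none. No symbol (0) needed an update.

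The linear model (limma 3.58.1, R 4.3.3) had a mean for each group over all 18 arrays, with 12 residual degrees of freedom and Benjamini-Hochberg adjustment over the 14292 genes above the filter. The threshold was an adjusted p under 0.05, and further probe sets of a gene were tested among all probe sets. Members and lists were chosen with earlier results of these data known. Named genes were all members, up to 3 called genes per pathway list and comparison, the transporters Slco1a4 and Slc16a10, the most correlated genes and a set of defining markers. Alternatives were another or no filter, averaged or separate probe sets, quantile or median scaling, trended, robust or weighted variance, a replicate block, only the groups compared, an adjusted p under 0.1, and leaving out each array. The fit was tested on simulated data. Precision is limited by the number of arrays. Of 9 same-numbered control and Htr3a-KO pairs, 2 had deviations correlated over 0.1 (range −0.542 to 0.303), so the numbers were not taken as pairs.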

Additional observations from a re-analysis of the deposited data

How the results depend on the processing

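Averaged over genotypes, the age steps of Dio2 and Klf9 and the first step of Thra kept their direction and passed under all 30 alternatives. That holds for the main probe set or the mean of probe sets. Dimmer probe sets taken singly did not all rise at the first step, such as the third of Dio2 (0.11, limma, adjusted p = 0.650) and 1 of Klf9 (0.10, adjusted p = 0.454). Hr lost its first rise with the mean of its probe sets (0.14 over genotypes, 0.23 in controls). The cause of the changes below was not tested.

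For the mean of ages, 1 member (Dio2) passed between genotypes with the stricter filter, trended variance, array weights, an adjusted p under 0.1, or the replicate block, against 0 as reported. The block gave Dio2 an adjusted p of 0.0448 and changed no other count of members. Array weights also called 1 member (Klf9) in the E14.5 comparison and 1 (Dio2) in that of E18.5, where an adjusted p under 0.1 called 1 too. Small values changed sign. With the mean of probe sets Thra gave 0.074 (P2 minus E18.5, control) and 0.15 (genotype, E18.5). Quantile normalization gave Thra 0.013 (genotype, P2) and median centring −0.007 (genotype, mean of ages). Array weights gave Hr 0.039 (P2 minus E18.5, control).

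Pathway genes called between E18.5 and P2 in controls were 9 with the mean of probe sets (5 as reported). Between E14.5 and E18.5 they were 9 in controls and 8 in Htr3a-KO with array weights, 2 and 2 with only the groups compared, and 8 and 7 at an adjusted p under 0.1 (5 and 4 as reported). Array weights called 2 at E14.5, 3 at E18.5 and 2 for the mean between genotypes (0 as reported).

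Leaving out each array, members called ranged from 1 to 2 for the later step in controls, and from 0 to 1 between genotypes in each of the E14.5, E18.5 and mean comparisons. Values of changing sign ranged from −0.05 to 0.047 for Hr (P2 minus E18.5, control), and for Thra from −0.185 to 0.005 (P2 minus E18.5, Htr3a-KO) and, between genotypes, from −0.107 to 0.045 (E18.5), −0.138 to 0.052 (P2) and −0.017 to 0.046 (mean). Pathway genes called ranged from 2 to 7 and 3 to 7 in controls at the 2 steps, 0 to 6 and 8 to 13 in Htr3a-KO, 0 to 3 between genotypes at E14.5 and 0 to 1 for the mean of ages. Only the groups compared was not run for the mean of ages or the test between ages, which use all groups.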
